A study of Mus musculus with 2 samples.

Results

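Integrins are cell surface receptors built from 1 alpha and 1 beta chain, and laminins are the trimeric proteins that begin the sheet of matrix, the basement membrane, to which many of them bind. The genes described here were chosen by name: every integrin alpha or beta gene and every laminin alpha, beta or gamma gene named with a number in the array files, the lettered integrins Itgal, Itgam, Itgav, Itgax and Itgae, and Nid1, Nid2, Hspg2, Agrn and Npnt. They are 41 of the 31920 genes on the array (a transcript without a gene symbol is counted as a gene), with 58 of its 39429 probes. The laminin beta 1 gene stands in the array files as Lamb1-1 and so falls outside that rule; its values are given among the related genes.

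RNA came from dissected ureters of NMRI mouse embryos at stage E14.5 (days of embryonic development), 200 ng a channel. The mutants, called Smad4cKO, were Tbx18(cre/+);Smad4(fl/fl): both Smad4 alleles could be deleted where Cre is made from the Tbx18 locus, which in the ureter means the mesenchyme and not the urothelium. The controls were Tbx18(+/+);Smad4(fl/+), so both genotypes carried at least 1 floxed Smad4 allele, and the Cre allele, which also replaces 1 copy of Tbx18, was present in mutants alone. Array 1 set a female Smad4cKO sample (green dye, AlexaFluor555) against a female control sample (red dye, AlexaFluor647), and array 2 a male Smad4cKO sample (red) against a male control sample (green). Sex and dye orientation therefore cannot be told apart, there are 2 samples a genotype, and whether a sample pooled embryos or litters is not stated in the labels.

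A basement membrane forms when laminin trimers bind each other and cell surface receptors. Nidogens and the heparan sulfate proteoglycans perlecan (Hspg2) and agrin (Agrn) then tie that layer to a second network of type IV collagen. Integrins read the sheet from the cell side, some binding laminin or collagen and others the RGD motif of fibronectin, vitronectin or nephronectin, and the integrin alpha 8 beta 1 receptor with its ligand nephronectin is known in mice for its place in ureteric bud outgrowth. The ureter at this stage has a basement membrane under the urothelium, and its mesenchyme is about to form smooth muscle cells, which surround themselves with one of their own.

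The direction of every ratio rests on the dye labels. Smad4, read by 2 probes, gave normalized intensities of 21018 and 27556 in the female and male channels labelled Smad4cKO against 33992 and 30350.2 in the channels labelled control, and its second probe gave 22594 and 22392 against 27960 and 31479. Both probes were thus dimmer in labelled Smad4cKO on both arrays, though by log2 ratios of only -0.69 and -0.14 for the first, and the labels do not say which part of Smad4 is deleted. Tbx18, with 1 copy replaced in mutants, was however brighter in labelled Smad4cKO on both arrays, at log2 0.07 and 0.81. Its intensities were 11108 and 13847 in labelled Smad4cKO against 10591 and 7896 in labelled control. Whether its probe also reads RNA from the Cre allele was not tested. The authors' deposited table, under titles that put Smad4cKO first, holds the inverse of these ratios: it lists a signed fold of 1.74 and 1.44 for Itga4 and of -1.63 and -1.34 for Lama2, where the dye labels put Itga4 lower and Lama2 higher in labelled Smad4cKO. The dye labels are followed throughout; if the dyes were exchanged in both labels, each direction below turns round and the sizes stay. Of each channel's spots, 68.3 to 70.3% were well above background and median signal was 8.79 to 10.8 times background. Urothelial markers (13 of 13) and ureteric mesenchyme markers (6 of 6) were measured above background. So were markers of neurons and glia (10 of 10), leukocytes (10 of 10) and endothelium (8 of 8). This count therefore does not tell the labelled tissue from others.

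Across the 41 genes, differences were small: the widest were a dimmer Itga4, the integrin alpha 4 chain (log2 ratio -0.65, SE 0.15, n = 2 arrays), and a brighter Lama2, the laminin alpha 2 chain of muscle and nerve (0.56, SE 0.14, n = 2). Measured above background were 36 genes, and 5 (Itga2, Itgae, Itgax, Itgb2l and Itgb8) were not. None of the 36 was at least 1.5-fold apart the same way on both arrays, against 1.01% of the 21248 genes tested (0.489% higher and 0.522% lower in labelled Smad4cKO), and none was 1.5-fold apart in opposite directions, against 1.25%, though Agrn was without background subtraction (-0.59 and 0.60) and Agrn and Nid1 were with median centring. None passed limma's moderated test after Benjamini-Hochberg adjustment over all genes at 0.05, where 0 genes were higher and 1 gene (0.00471%) was lower. At an unadjusted limma p under 0.05 there was 1 member higher (2.78%, background 2.14%) and there were 5 lower (13.9%, background 2.96%), 16.7% of the 36 in all against 5.11% of all genes.

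A milder rule, 1.2-fold the same way on both arrays with no test, held for 6 of the 36 genes (16.7%) against 4.62% of all genes tested. Lama2 alone was higher in labelled Smad4cKO (background 1.98%), and Itga4, Lamc3, Itga9, Lama4 and Lama1 were lower (13.9% against 2.64%). The members' median brightness (mean log2 intensity of the channels) was 12.1 beside 11.3 over all genes, and 20 of 36 lay above the median over all genes. Among genes in that brighter part, 30% of members and 2.72% of all genes met the 1.2-fold rule. For 20 of the 36 genes both labelled Smad4cKO intensities lay on one side of both labelled control intensities, 9 above (25%, background 14.2%) and 11 below (30.6%, background 14.1%), in all 55.6% against a background of 28.3% of genes. The median log2 ratio over the 36 was 0.06, beside 0.00 over all genes, and the median size of the ratio without its sign was 0.16 beside 0.07. Both arrays put 12 members higher (33.3%, background 19.9%) and 11 lower (30.6%, background 19.8%) in labelled Smad4cKO, and the arrays disagreed in sign for 13 (36.1%) against 60.3% of all genes.

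**Figure D1:**
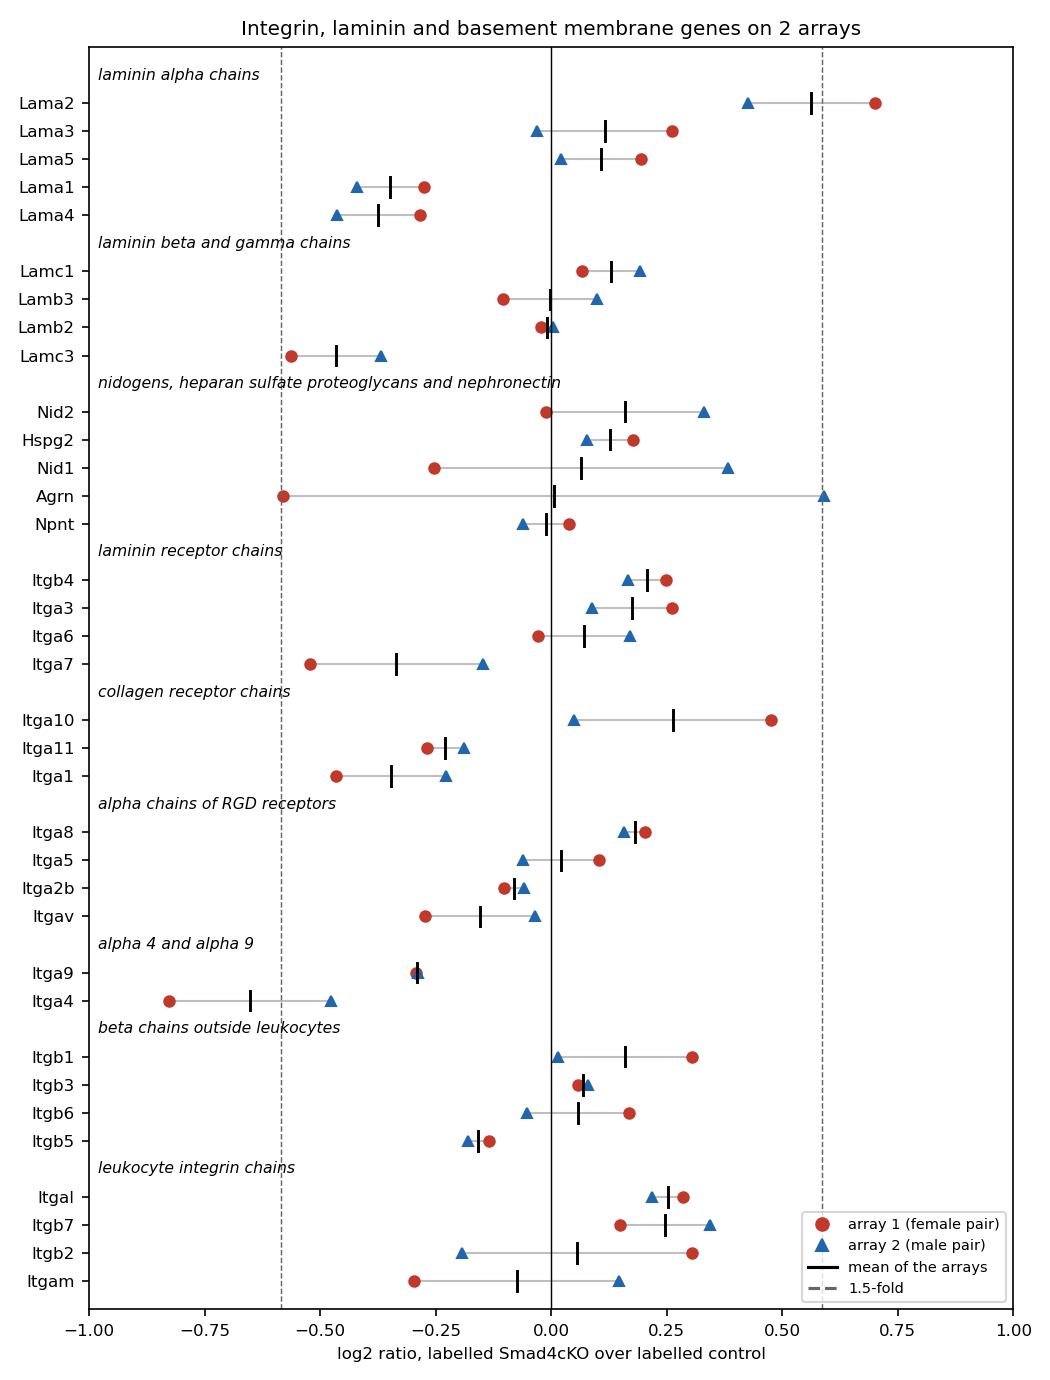
Log2 ratio of labelled Smad4cKO over labelled control (horizontal axis) for the genes measured above background, apart from 1 not reported here, grouped by role; circles are array 1 (female pair), triangles array 2 (male pair), black ticks the mean of the arrays and dashed lines 1.5-fold. Itga4 (-0.83 and -0.48) and Lama2 (0.70 and 0.43) lie farthest from 0, and Agrn (-0.58 and 0.59) has the widest gap between the arrays.

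Laminin alpha chains give each laminin its tissue and its receptor binding, and all 5 were measured. Lama2, whose chain is the laminin alpha of muscle fibres and Schwann cells, had normalized intensities of 19921 and 19190.2 in the female and male channels labelled Smad4cKO against 12264 and 14291 in the channels labelled control (chr10:26701380-26701439, mm9, minus strand). Both mutant values lay above both control values, with log2 ratios of 0.70 and 0.43 (mean 0.56, SE 0.14, n = 2; limma adjusted p = 0.442). A second Lama2 probe gave 6896 and 7413 in labelled Smad4cKO against 5077 and 4896 in labelled control, log2 0.44 and 0.60, so the probes gave the same direction. As in all these bulk samples, more cells of a type and more RNA per cell cannot be told apart.

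Lama4, the alpha chain of blood vessel and mesenchymal laminins, went the other way, with 18986 and 20226 in labelled Smad4cKO against 23126 and 27911 in labelled control (chr10:38825794-38825853, plus strand; log2 -0.28 and -0.46, mean -0.37, SE 0.14, n = 2; limma adjusted p = 0.822). Lama1, the alpha chain of the first laminin made in the embryo, had 4324 and 3768 in labelled Smad4cKO against 5236 and 5046 in labelled control (chr17:68171924-68171983, plus strand; log2 -0.28 and -0.42, mean -0.35, SE 0.13, n = 2; limma adjusted p = 0.895). Neither gene's groups overlapped. Lama5, the alpha chain found under most mature epithelia, had 22307 and 22512 in labelled Smad4cKO against 19490 and 22188 in labelled control (chr2:179911079-179911138, minus strand), log2 0.19 and 0.02 (mean 0.11, SE 0.13, n = 2), also without overlap. Lama3, the chain of the laminin that anchors epithelia, gave 0.26 and -0.03, and its second probe -0.23 and 0.10, so neither its arrays nor its probes gave 1 direction. Among the alpha chains, then, Lama2 and, by less, Lama5 stood above the controls on both arrays, Lama1 and Lama4 stood below them, and Lama3 had no single direction. With median centring Lama4 gave -0.65 and -0.04, and Lama5 gave -0.17 and 0.43 and so had no single direction. Endothelial markers were brighter in labelled Smad4cKO on both arrays for 4 of 8 and dimmer for 0. They summed to 66494 and 63689 in labelled Smad4cKO against 58386 and 59473 in labelled control. Ureteric mesenchyme markers were brighter on both arrays for 2 of 6 and dimmer for 2. The part of these cell types in the Lama4 ratio was not tested.

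Smooth muscle markers shared the direction of Lama2, whose 2 probes gave 0.70 and 0.43 and 0.44 and 0.60. The markers' median log2 ratio was 1.03 on array 1 and 2.08 on array 2. All 7 (Myh11, Acta2, Actg2, Cnn1, Tagln, Smtn and Des) were brighter in labelled Smad4cKO on both arrays, 5 of them by 1.5-fold or more, with a median log2 ratio of 1.59. Their summed intensity was 75639 and 96195 in the female and male channels labelled Smad4cKO against 48572 and 45204 in the channels labelled control. None was at 0, and Myh11, the smooth muscle myosin, gave log2 ratios of 2.08 and 2.65, well beyond those of Lama2. The part of smooth muscle content in the Lama2 ratio was not tested.

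Smad proteins bind GTCT, and serum response factor binds the CArG box of smooth muscle genes. The 250 bases before each member's RefSeq start (GRCm38.p6) were therefore searched for both, for GGCGCC and for GTCTAGAC, on both strands. The search covered 32 windows of 27 members, with none for Lama1, Lama4 or Lamc3. The Lama2 window (chr10:27616943-27617192, minus strand) is shown as one with a CArG box. A GTCT on the other strand (AGAC) and a CArG box, both in capitals, were found:
Lama2 upstream: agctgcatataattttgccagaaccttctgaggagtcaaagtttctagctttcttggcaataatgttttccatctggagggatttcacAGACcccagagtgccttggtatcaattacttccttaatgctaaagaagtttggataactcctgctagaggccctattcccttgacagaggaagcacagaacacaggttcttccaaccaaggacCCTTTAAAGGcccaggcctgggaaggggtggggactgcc
A GTCT or AGAC occurs in 82.9% of the 32851 upstream windows of this length in the RefSeq table and a CArG box in 1.47%. GGCGCC (9.59% of windows) and GTCTAGAC (0.167%, each also holding GTCT) were not among these letters. Itgb6, with log2 ratios of 0.17 and -0.05, also had a CArG box in an upstream window (chr2:60673694-60673943, minus strand). No other member window held one. Binding at these motifs was not tested.

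The beta and gamma chains complete the trimers. Lamc3, the gamma 3 chain, had 2301 and 2577 in labelled Smad4cKO against 3399.9 and 3328 in labelled control (chr2:31801996-31802055, plus strand). Both mutant values were below both control values, log2 -0.56 and -0.37 (mean -0.47, SE 0.14, n = 2; limma adjusted p = 0.572). The gamma 1 chain Lamc1, part of most laminins, had 23678 and 26287 in labelled Smad4cKO against 22609.7 and 23024 in labelled control (chr1:155066156-155066215, minus strand), log2 0.07 and 0.19 (mean 0.13, SE 0.13, n = 2). Lamb2, the beta chain of muscle and kidney laminins, was the laminin gene nearest to no difference on each array, with 12503 and 12120.1 in labelled Smad4cKO against 12703 and 12084 in labelled control (chr9:108392189-108392248, plus strand), log2 -0.02 and 0.00 (mean -0.01, SE 0.13, n = 2). Lamb3, a beta chain of epithelia, had opposite signs on the arrays (-0.11 and 0.10). Of the chains described here, Lamc3 was the one with non-overlapping groups and a ratio past 1.2-fold on both arrays.

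**Figure D2:**
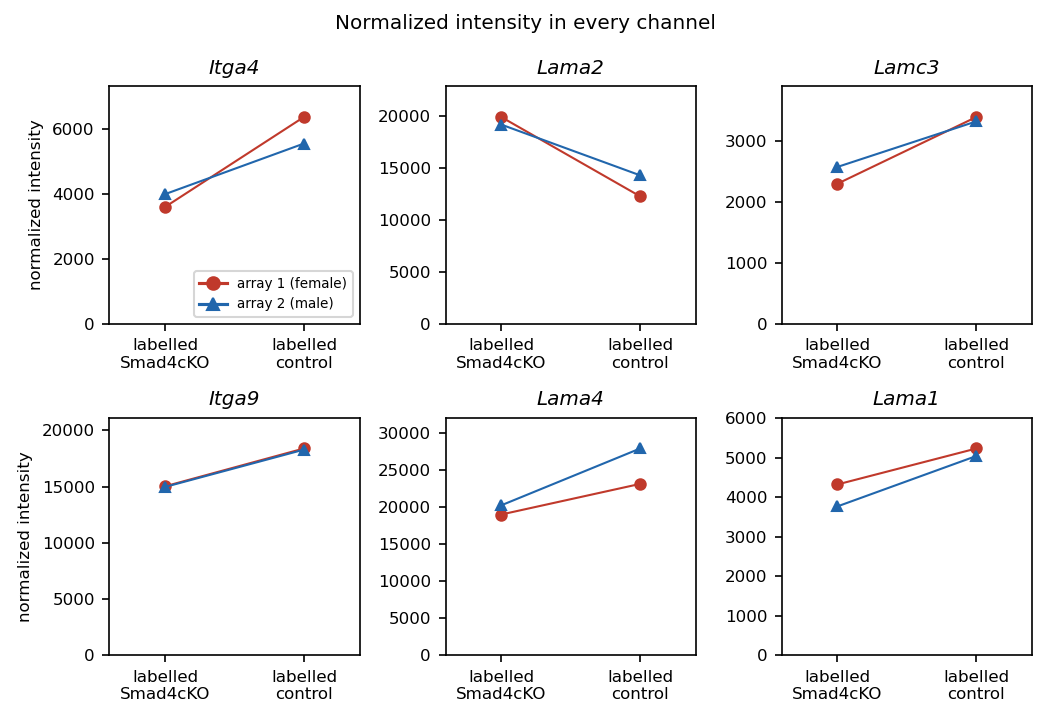
Normalized intensity (vertical axis, from 0) of the 6 genes at 1.2-fold or more the same way on both arrays, labelled Smad4cKO left and labelled control right, with circles for array 1 and triangles for array 2. Lama2 slopes down toward control (19921 against 12264 on array 1), and the other 5 slope up; each panel has its own scale, since levels of different probes cannot be compared.

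The linkers of the sheet showed no shared direction. Nidogen 1 (Nid1), which joins laminin to type IV collagen, had 22398 and 27299.5 in labelled Smad4cKO against 26693 and 20929 in labelled control (chr13:13604435-13604494, plus strand), log2 -0.25 and 0.38 (mean 0.07, SE 0.18, n = 2), and its other probes gave 0.07 and 0.15 and -0.05 and 0.33. Nidogen 2 (Nid2) had 19399.8 and 21719 in labelled Smad4cKO against 19550.1 and 17279.5 in labelled control (chr14:20630490-20630549, plus strand), log2 -0.01 and 0.33 (mean 0.16, SE 0.15, n = 2). Perlecan (Hspg2) had 23639.8 and 24976 in labelled Smad4cKO against 20928 and 23678 in labelled control (chr4:137126392-137126451, plus strand), log2 0.18 and 0.08 (mean 0.13, SE 0.13, n = 2), and its second probe -0.11 and 0.33. The groups overlapped for all 3 genes.

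Agrin, the proteoglycan that also organises the nerve-muscle synapse, had the widest disagreement between the arrays of any member. Agrn intensities were 28332 and 40614 in labelled Smad4cKO against 42368 and 26973 in labelled control (chr4:155539415-155539474, minus strand), log2 -0.58 and 0.59, whose mean was 0.00 (SE 0.27, n = 2). The red channel was the brighter one on both arrays, so the mutant was dimmer in the female pair and brighter in the male pair. Its second probe gave -0.05 and 0.26. The gap depended on the normalization, with -1.12 and 1.12 under median centring and -0.45 and 0.40 from processed signals. Agrn was the 1 member of 36 at 1.2-fold or more in opposite directions, which held for 6.7% of all genes. Among the 13 members with opposite signs, 7 were brighter in red on both arrays, beside 6068 of 12804 genes.

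Nephronectin (Npnt), the ligand of integrin alpha 8 beta 1, had 538 and 501 in labelled Smad4cKO against 524 and 523 in labelled control (chr3:132547399-132547458, minus strand), log2 0.04 and -0.06 (mean -0.01, SE 0.13, n = 2). Its receptor chain Itga8 had 16237 and 16067 in labelled Smad4cKO against 14101 and 14401 in labelled control (chr2:12028462-12028521, minus strand), log2 0.20 and 0.16 (mean 0.18, SE 0.13, n = 2). Itga8 groups did not overlap but the ratio was under 1.2-fold on both arrays, and Npnt differed by less than its SE. Gdnf, the growth factor gene that acts downstream of this pair in the mouse kidney anlage, gave log2 ratios of -1.75 and -2.14, beside values near 0 for Npnt and above 0 for Itga8.

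The alpha 4 and alpha 9 chains form a subfamily of their own that binds fibronectin, VCAM1, osteopontin and tenascin C, and both were dimmer in labelled Smad4cKO. Itga4 had 3589.9 and 3986 in labelled Smad4cKO against 6365 and 5547 in labelled control (chr2:79173193-79173252, plus strand), log2 -0.83 and -0.48 (mean -0.65, SE 0.15, n = 2; limma adjusted p = 0.356). Itga9 had 15023 and 14967.5 in labelled Smad4cKO against 18394.5 and 18291.5 in labelled control (chr9:118807900-118807959, plus strand), log2 -0.29 on both arrays (mean -0.29, SE 0.13, n = 2; limma adjusted p = 1.00). Neither gene's groups overlapped. With median centring in place of loess, Itga9 gave -0.59 and 0.03, and it was under 1.2-fold on 1 array from processed signals and from the authors' deposited values. The windows before their RefSeq starts (GRCm38.p6, Itga4 chr2:79255176-79255425 and Itga9 chr9:118711442-118711691, both plus strand) each held 1 GTCT on either strand, in capitals, as do most windows, and no CArG box, GGCGCC or GTCTAGAC:
Itga4 upstream: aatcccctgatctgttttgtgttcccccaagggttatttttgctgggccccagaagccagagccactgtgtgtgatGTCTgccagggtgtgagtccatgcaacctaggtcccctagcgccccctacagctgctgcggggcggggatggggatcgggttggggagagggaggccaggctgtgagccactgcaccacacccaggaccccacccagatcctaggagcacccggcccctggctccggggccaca
Itga9 upstream: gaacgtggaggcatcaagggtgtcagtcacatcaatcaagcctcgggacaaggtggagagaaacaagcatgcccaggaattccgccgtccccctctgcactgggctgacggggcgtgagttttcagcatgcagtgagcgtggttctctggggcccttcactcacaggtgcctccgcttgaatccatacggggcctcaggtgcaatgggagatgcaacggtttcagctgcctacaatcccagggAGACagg

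A second Itga4 probe, whose 60 bases join exons across 1131 bases of genome (chr2:79153985-79155115, mm9, plus strand), was well above background on array 1 alone and was not tested. It gave 153 and 141 in labelled Smad4cKO against 193 and 136 in labelled control, log2 -0.34 and 0.05. The Itga4 result therefore rests on 1 probe. The exon-joining probe is shown because it reads spliced Itga4 RNA and bears on that result:
Itga4 exon-joining probe: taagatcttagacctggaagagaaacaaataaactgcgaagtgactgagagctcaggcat

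Known ligands of these chains are given beside them, all but tenascin C chosen after their values were seen. Fibronectin (Fn1) gave log2 ratios of -0.98 and 0.92, Vcam1 0.41 and 0.07, osteopontin (Spp1) 0.82 and -0.50, and tenascin C (Tnc) -1.37 and -0.63. Of these 4, Tnc was the one past 1.5-fold the same way on both arrays. Markers of neurons and glia were dimmer too: 8 of 10 on both arrays, 3 by 1.5-fold, with a median log2 ratio of -0.69 and a summed intensity of 13329 and 12995 in labelled Smad4cKO against 21197 and 16753 in labelled control, and no marker at 0. All 5 skeletal muscle markers measured were dimmer on both arrays (sums 1880.3 and 1866 in labelled Smad4cKO against 2837 and 2712 in labelled control), 1 by 1.5-fold. Nephric markers were dimmer on both arrays for 4 of 7 measured and brighter for 0, with 2 (Gdnf and Wt1) past 1.5-fold and sums of 7599.8 and 7578 in labelled Smad4cKO against 13872 and 12094 in labelled control. Erythroid markers were dimmer on both arrays for 4 of 6 and brighter for 1 (Epor, 0.60 and 0.23), with a median log2 ratio of -0.27. They summed to 93289 and 162817 in labelled Smad4cKO against 171002 and 90872 in labelled control. Most of each sum was the globin gene Hbb-bt, with 79977 and 150678 in labelled Smad4cKO against 158259 and 78024 in labelled control. Further lists had medians above 0. Leukocyte markers (median log2 ratio 0.15) were brighter on both arrays for 4 of 10 and dimmer for 0. Endothelial markers (median 0.14) were brighter on both for 4 of 8 and dimmer for 0. Ureteric mesenchyme markers (median 0.03) were brighter on both for 2 of 6 and dimmer for 2. The part of any of these cell types in the Itga4 and Itga9 ratios was not tested.

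Laminin receptors were measured through 4 chains. Itga3 had 521 and 512 in labelled Smad4cKO against 435 and 481 in labelled control (chr11:94906334-94906393, minus strand), log2 0.26 and 0.09 (mean 0.17, SE 0.13, n = 2). Itga6, which pairs with beta 4 in the hemidesmosome of epithelial cells, had 7537 and 8640.1 in labelled Smad4cKO against 7693 and 7677 in labelled control (chr2:71694756-71694815, plus strand), log2 -0.03 and 0.17 (mean 0.07, SE 0.14, n = 2). Its partner Itgb4 had 4165 and 4728 in labelled Smad4cKO against 3508 and 4211 in labelled control (chr11:115869666-115869725, plus strand), log2 0.25 and 0.17 (mean 0.21, SE 0.13, n = 2). Itga7, the laminin receptor chain of muscle, was dimmer at -0.52 and -0.15, with 295 and 375 in labelled Smad4cKO against 424 and 415 in labelled control. So the epithelial chains Itga3 and Itgb4 were slightly brighter and the muscle chain Itga7 slightly dimmer on both arrays, all with limma adjusted p = 1.00, while smooth muscle markers were brighter and skeletal muscle markers dimmer. Urothelial markers, of which 0 of 13 were past 1.2-fold, summed to 235826 and 214454 in labelled Smad4cKO against 186206 and 222464 in labelled control; their part in the epithelial values was not tested.

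Of the collagen receptor chains, Itga1 had 1039 and 962 in labelled Smad4cKO against 1435 and 1128 in labelled control (log2 -0.47 and -0.23, mean -0.35, SE 0.14, n = 2; limma adjusted p = 0.957), with no overlap. A second Itga1 probe gave 709 and 751 in labelled Smad4cKO against 1072 and 702 in labelled control, log2 -0.60 and 0.10, and so was dimmer on array 1 alone. Both probes join exons, the first over chr13:115756765-115758419 and the second over chr13:115821387-115825525 (mm9, minus strand), and they are printed because they read different parts of the spliced transcript and differ on array 2:
Itga1 first probe: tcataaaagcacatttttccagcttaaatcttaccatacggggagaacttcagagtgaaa
Itga1 second probe: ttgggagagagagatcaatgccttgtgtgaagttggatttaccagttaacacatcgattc
Itga11, a collagen receptor chain of mesenchymal cells, gave -0.27 and -0.19, and Itga10, known from cartilage, 0.48 and 0.05, with 0.27 and 0.29 on its second probe. Itga2 was not well above background in any channel.

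The chains of RGD receptors all gave ratios under 1.2-fold on at least 1 array. Itgav, which pairs with several beta chains to bind vitronectin and to release latent TGFB, had 2055 and 2454 in labelled Smad4cKO against 2482 and 2515 in labelled control (chr2:83646133-83646192, plus strand), log2 -0.27 and -0.04 (mean -0.15, SE 0.14, n = 2), and -0.11 and 0.11 on its second probe. Itga5, the main fibronectin receptor chain, gave 0.10 and -0.06, and Itga2b, the platelet chain, -0.10 and -0.06. Its partner Itgb3 gave 0.06 and 0.08. Of the 5 platelet markers measured, 0 were past 1.5-fold and 1, Pf4, was past 1.2-fold (0.33 and 0.32). On both arrays 1 was brighter and 1 dimmer in labelled Smad4cKO. The markers summed to 7636 and 7147 in labelled Smad4cKO against 6492 and 5961 in labelled control.

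Itgb1, the beta chain that pairs with the largest number of alpha chains, had 30734 and 28311 in labelled Smad4cKO against 24902 and 28035 in labelled control (log2 0.30 and 0.01, mean 0.16, SE 0.14, n = 2). Its second probe gave 0.22 and 0.21. Both probes were brighter in labelled Smad4cKO on both arrays. On its first probe Itgb1 gave -0.15 and 0.49 with median centring, and 0.32 and -0.003 with a background offset of 10. Of the 11 measured alpha chains that pair with it, Itga3, Itga8 and Itga10 were brighter on both arrays, Itga1, Itga4, Itga7, Itga9, Itga11 and Itgav were dimmer on both by their brightest probe, and Itga5 and Itga6 had opposite signs. The first probe joins exons across chr8:131250081-131255976 (mm9, plus strand) and is shown because it carries the Itgb1 value:
Itgb1 exon-joining probe: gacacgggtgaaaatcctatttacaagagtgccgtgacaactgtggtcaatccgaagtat
Itgb5, a partner of alpha v, gave -0.14 and -0.18, and the epithelial Itgb6 gave 0.17 and -0.05.

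Of the 4 leukocyte integrin chains measured, 2 were brighter in labelled Smad4cKO on both arrays. Itgal, of lymphocytes and other white cells, gave 0.29 and 0.22, with 0.19 and 0.26 on its second probe. Itgb7, which pairs with alpha 4 and alpha E, gave 0.15 and 0.34. Both had groups that did not overlap. Itgb2, the common leukocyte beta chain, gave 0.30 and -0.19, and Itgam, of macrophages and granulocytes, -0.30 and 0.15 on its brightest probe. Leukocyte markers (10 of 10 measured, none at 0) summed to 33588 and 32591 in labelled Smad4cKO against 26302 and 34126 in labelled control, with a median log2 ratio of 0.15 and 1 of 10 past 1.2-fold. Like Itgb2, their sum was higher in labelled Smad4cKO on array 1 and lower on array 2; their part in these values was not tested.

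**Figure D3:**
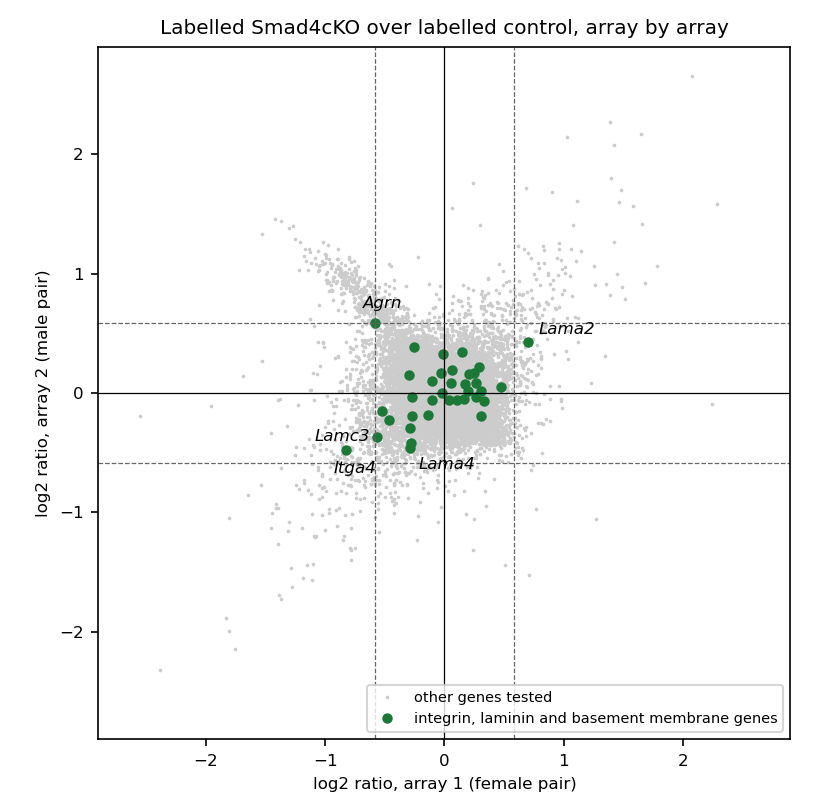
Log2 ratio of labelled Smad4cKO over labelled control on array 1 (horizontal) against array 2 (vertical) for the 36 member genes (green) and the other genes tested (grey), with dashed lines at 1.5-fold. No green point lies beyond 1.5-fold on both arrays; Agrn, at -0.58 and 0.59, lies in the upper left arm of genes brighter in red on both arrays.

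Several probes were tested for 12 of the genes. The mean of the arrays had a different sign between probes for 4 of them: Itgam, Itgav, Itgb6 and Lama3. The median gap between a gene's probes was 0.08 on the log2 scale and the largest 0.31. Apart from Itga4, Lama2, Lamc3, Lama4, Lama1 and Itga1, the limma adjusted p of each member, 30 in all, was 1.00.

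Of 10 basement membrane collagens, 0 were past 1.5-fold, with a median log2 ratio of 0.00. Col4a5, a type IV collagen chain, was the one past 1.2-fold (-0.43 and -0.28), and Col17a1, of hemidesmosomes, was the highest by the smaller ratio (0.04 and 0.32). Among 18 measured other basement membrane genes (median -0.02), 1 was past 1.5-fold in each direction, against 1.01% of all genes, and at 1.2-fold 1 was higher and 3 lower, against 4.62%. The genes past 1.5-fold were the 2 SMOC genes, whose products are calcium-binding matrix proteins related to SPARC. Smoc2 had 15834 and 20689 in labelled Smad4cKO against 35718 and 34967 in labelled control (log2 -1.17 and -0.76, mean -0.97; limma adjusted p = 0.181). Smoc1 had 4316 and 3964 in labelled Smad4cKO against 2426 and 2429 in labelled control (log2 0.83 and 0.71, mean 0.77; limma adjusted p = 0.198). The closely related genes thus stood on opposite sides of the controls. Lamb1, the laminin beta chain listed as Lamb1-1, gave -0.35 and 0.33.

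On the ligand and cytoplasmic sides, 13 integrin ligands outside basement membranes had a median of 0.05, with Tnc past 1.5-fold and Madcam1, the gut addressin, the highest by the smaller ratio (0.29 and 0.07). None of 29 integrin activator and adhesion plaque genes was past 1.5-fold (median 0.05). Parvg, the parvin of blood cells, was brighter (0.32 and 0.32), and Lims2, an adapter of the integrin-linked kinase complex, was dimmer (-0.38 and -0.34). The 11 genes of the dystrophin complex, through which muscle binds laminin alpha 2, had 0 past 1.2-fold and a median of 0.07, with Dtna at 0.33 and 0.20 and Sgcd at -0.23 and -0.24. Of 3 measured genes with integrin-like names, Itfg2 gave 0.09 and 0.06. No gene of these lists passed limma's adjusted test.

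**Figure D4:**
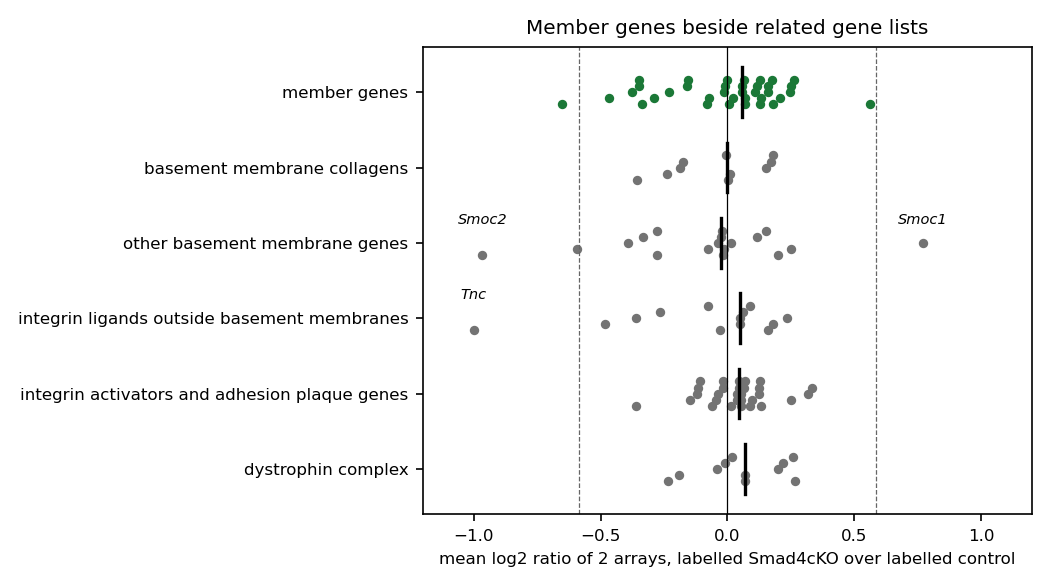
Mean log2 ratio of the 2 arrays, labelled Smad4cKO over labelled control, for each member gene (green) and each gene of 5 related lists (grey), with black ticks at the list medians and dashed lines at 1.5-fold. Medians lie between -0.02 and 0.07, and Tnc, Smoc2 (-0.97) and Smoc1 (0.77) lie farthest out.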

How the data were processed

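The deposited scanner files hold, per the file headers, a red and a green intensity for each spot, and a log10 ratio (not used) from Agilent Feature Extraction 10.7.3.1, named in the submitters' processing notes. The value table that the authors deposited gives signed folds (channel over channel), whose direction was found against the scanner values. Intensities were background-corrected (normexp, offset 50) and loess-normalized within arrays (limma 3.58.1, R 4.3.3), with 1377 control spots given no weight. Every ratio was oriented with labelled Smad4cKO on top. Channel intensities are those after loess and Aquantile. Outlier spots were left out. A probe was tested if 1 genotype by its label stood well above background on each array (26670 of 39429 probes), and the brightest stood for its gene (21248 genes). limma's lmFit and eBayes tested each ratio against 0 over all genes, with Benjamini-Hochberg adjustment; at 1 residual and 4.87 prior degrees of freedom, the SE rests mostly on the spread pooled over genes. Coordinates are mm9 as in the files; positions within exons or UTRs were not used here. The 2 arrays limit the precision.

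Members and lists were chosen with earlier results of these data known. Named are members at 1.2-fold the same way on both arrays, 16 core members, those with disagreeing probes or not measured, and, per list and direction, up to 3 genes past 1.5-fold or else the largest by the smaller ratio. Fn1, Vcam1, Spp1, Wt1 and Lamb1 were added after their values were seen. Upstream windows (RefSeq, GRCm38.p6) matched 27 of 41 genes. The values of 1 member are not reported here. The fits were tested on simulated data.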

Additional observations from a re-analysis of the deposited data

Results flagged for a closer look

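Agrn gave opposite ratios in the pairs, -0.58 in the female pair (array 1) and 0.59 in the male pair (array 2), labelled Smad4cKO over labelled control. With median centring Agrn gave -1.12 and 1.12, and from processed signals -0.45 and 0.40. The difference between the pairs was not tested, and sex and dye orientation change together. Opposite signs at 1.2-fold or more occurred in 1423 of the 21248 genes tested (6.70%).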

How the results depend on the processing

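Over 11 settings of background correction, normalization, filter and variance model, the 6 genes at 1.2-fold kept the direction of their mean, though with median centring Itga9 gave -0.59 on array 1 and 0.03 on array 2. Itga9 was no longer at 1.2-fold on both arrays from processed signals, from the deposited values and with median centring, nor were Lama4 and Lamc3 with median centring, where Itga4, Lama1 and Lama2 remained. No member reached 1.5-fold the same way on both arrays. With an intensity trend and robust variance in limma, 2 members (Itga4, adjusted p = 0.000815; Lamc3, adjusted p = 0.0478) passed as lower, where 295 genes in all were called higher and 406 lower. Over the settings limma's adjusted p ran from 0.000815 to 1.00 for Itga4 and from 0.0478 to 1.00 for Lamc3. In place of 0 higher and 1 lower, limma called 143 and 160 genes from processed signals, 32 and 31 with offset 10, 72 and 77 from the authors' deposited values, and 1 and 3 above background in both channels; it called 0 lower with outlier spots kept, with probes of a gene averaged and with median centring. Genes past 1.5-fold numbered 184 higher and 199 lower from processed signals and 177 and 184 from the deposited values, against 104 and 111. Members at 1.2-fold were 2 higher from processed signals and from the deposited values, and 2 lower with median centring. Itga1, Itga7 and Itgal joined the 1.2-fold set from processed signals, and Itgal from the deposited values. Over the settings the mean ran from -0.37 to -0.30 for Itga1, from -0.50 to -0.33 for Itga7 and from 0.24 to 0.46 for Itgal. The members' median (0.06) was 0.0625 from processed signals, 0.0637 with offset 10, 0.0535 without background subtraction, 0.0448 with median centring, 0.0696 from the deposited values and 0.0050 with no filter on dim probes. The mean for Agrn turned to -0.0258 from processed signals and -0.0187 from the deposited values. Some members with 1 direction on both arrays had opposite signs with median centring. Among them were Lama5 (-0.17 and 0.43), Lamc1 (-0.33 and 0.63), Itga8 (-0.08 and 0.46), Itgb1 (-0.15 and 0.49) and Itgav (-0.37 and 0.08). The cause of these shifts was not tested.

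With either array alone, 1 member was 1.5-fold higher (Lama2 on array 1, Agrn on array 2) and 0 to 1 lower (Itga4 on array 1), beside 256 to 635 genes higher and 242 to 684 lower. Members at 1.2-fold were then 5 to 6 higher and 5 to 11 lower, and their median 0.00924 to 0.0134. Single arrays gave -0.0295 to 0.17 for Itga6, -0.0228 to 0.00435 for Lamb2, -0.25 to 0.38 for Nid1, -0.0111 to 0.33 for Nid2, -0.58 to 0.59 for Agrn and -0.0616 to 0.0379 for Npnt. No further pairing was left to add. Each ratio already sets a mutant against a control of the same sex on 1 array, so the reported fit is itself paired. The SE of a member's mean ratio was 0.13 (log2) or more, and the 5 members not well above background were not tested.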

Other observations

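Several bright matrix and surface genes outside the named families, chosen here after their values were seen, had opposite ratios on the arrays like Agrn, labelled Smad4cKO over labelled control. Sparc, a collagen-binding matrix protein gene, gave -0.61 on array 1 and 0.92 on array 2. The tetraspanin gene Cd81 gave -0.76 and 0.89, Pxdn, whose product crosslinks type IV collagen, -0.46 and 0.31, and the globin gene Hbb-bt -0.98 and 0.95. Each was brighter in the red channel on both arrays, as were 1005 of the 1423 genes at 1.2-fold or more in opposite directions.

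Hmcn1, which encodes the large matrix protein hemicentin, was dimmer in labelled Smad4cKO on both arrays, with 4406 and 4385 in labelled Smad4cKO against 7086 and 6207 in labelled control (log2 -0.69 and -0.50). Thbs1, a matrix glycoprotein gene, gave -0.53 and -0.19, and Ccn1 and Ccn2, matricellular integrin ligands, gave -0.70 and -0.26 and -0.34 and -0.19. These were also chosen after their values were seen, and none passed limma's adjusted test.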
